A study of Mus musculus with 12 samples.

Results

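Wide stable peaks are stretches of open chromatin that were at least 3000 bp wide in control mouse embryonic fibroblasts (MEFs) and stayed in place in every other group measured. They were chosen by the widths and positions of the authors' broad peaks. A peak of the MEF control list was taken if it was at least 3000 bp wide and shared at least 50% reciprocal overlap with a peak in each of the other 3 lists. This gave 722 of the 166486 MEF control peaks (0.434%), out of 1286 that passed the width alone. Stability at this overlap was met by 37964 MEF control peaks of any width, and 564 peaks of at least 3000 bp did not meet it.

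Omni-ATAC-seq, in which Tn5 transposase inserts sequencing adaptors into open chromatin, was run on 4 groups of 3 libraries from 50000 sorted cells each. All cells were given as P2 fibroblasts of the 129 strain from E12.5 embryos. Per the study's methods the embryos were chimeras made by morula aggregation with an engineered embryonic stem cell line. Its cells carried Cas9, a Nanog-GFP reporter with puromycin resistance, and a doxycycline-inducible cassette with MYC, KLF4, OCT4 and SOX2 and an mOrange reporter. The control cells carried all of these too. Cells received a lentiviral non-targeting sgRNA (control) or an sgRNA against Zfp266, a zinc finger gene, as a pooled knockout (KO) and not as a clone. MEF samples were plated as engineered cells alone and stayed in MEF medium, which held FGF2 and heparin. Reprogramming samples were plated as a minority among wild-type 129 fibroblasts. They spent 72 h in embryonic stem cell medium, with LIF but no FGF2 or heparin, to which vitamin C (10 µg/ml) and doxycycline (300 ng/ml) were added. All were sorted 96 h after transduction, the reprogramming cells as mOrange-positive. Reprogramming and MEF samples thus differed in medium and co-culture as well as in cassette induction, and the part of each was not tested. The label of the cell type was checked against marker gene starts: 12 of 12 fibroblast markers had a peak at a start in MEF control and 11 of 12 in reprogramming control, while 0 of 3 skeletal muscle markers and 2 of 4 blood markers (Csf1r and Cd68) had one in MEF control. Of the markers of other cell types, 5 of 6 epithelial, 4 of 4 neural and 2 of 4 endothelial genes also had a peak at a start in MEF control. Of the 7 pluripotency markers, 2 had a peak at a start in MEF control and 3 in reprogramming control, and the starts of Pou5f1 and Nanog had none in either. An open start does not show that a gene is transcribed. In bulk samples a change in the share of cells with an open site and a change of openness within each cell cannot be told apart.

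Open chromatin at a promoter is usually a short nucleosome-depleted stretch around the start site. Broader openness is known at CpG islands, which are long CpG-rich stretches that cover the starts of most housekeeping and developmental genes, and at genes whose transcription is strong or easily induced. A broad peak caller also joins neighbouring open stretches when the signal between them stays above background.

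The middle 300 bases of 4 members are printed to show how members that the results turn on differ in CpG content, with each CG dinucleotide in capitals. Ccnd1 is the widest member (chr7:144940506-144940805), Plxnc1 was among the lowest in reprogramming relative to MEF (chr10:94944024-94944323), the peak nearest Arid5b was among the highest (chr10:68355403-68355702), and the peak in 1700061G19Rik was more open in KO (chr17:56884866-56885165). All are forward-strand sequence of GRCm38.
Ccnd1: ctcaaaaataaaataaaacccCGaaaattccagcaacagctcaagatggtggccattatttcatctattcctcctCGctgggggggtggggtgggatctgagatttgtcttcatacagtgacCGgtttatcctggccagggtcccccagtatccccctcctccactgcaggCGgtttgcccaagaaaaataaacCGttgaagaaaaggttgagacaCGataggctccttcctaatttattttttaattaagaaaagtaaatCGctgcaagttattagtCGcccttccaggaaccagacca
Plxnc1: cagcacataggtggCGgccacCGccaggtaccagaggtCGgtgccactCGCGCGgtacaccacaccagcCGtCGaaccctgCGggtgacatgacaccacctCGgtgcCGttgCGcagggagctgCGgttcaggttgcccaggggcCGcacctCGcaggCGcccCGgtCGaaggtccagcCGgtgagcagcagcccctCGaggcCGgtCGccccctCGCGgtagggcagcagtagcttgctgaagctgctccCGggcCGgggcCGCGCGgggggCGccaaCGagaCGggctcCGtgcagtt
Arid5b: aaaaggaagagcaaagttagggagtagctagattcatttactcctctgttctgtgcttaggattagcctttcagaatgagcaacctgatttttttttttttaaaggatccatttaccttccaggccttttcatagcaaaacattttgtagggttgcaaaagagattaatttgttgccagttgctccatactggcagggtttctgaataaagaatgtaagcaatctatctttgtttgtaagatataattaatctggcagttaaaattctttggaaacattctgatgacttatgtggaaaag
1700061G19Rik: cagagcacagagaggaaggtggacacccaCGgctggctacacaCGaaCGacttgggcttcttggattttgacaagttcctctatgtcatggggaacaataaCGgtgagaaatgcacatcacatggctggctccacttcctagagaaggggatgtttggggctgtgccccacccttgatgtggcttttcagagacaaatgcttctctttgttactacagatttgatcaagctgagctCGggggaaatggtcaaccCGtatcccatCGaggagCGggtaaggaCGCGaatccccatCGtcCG
In the order printed, these stretches hold 8, 33, 0 and 12 CG dinucleotides. Over all 722 members the median was 14 (quartiles 6 and 25, highest 61), over all stable peaks it was 6, and over all MEF control peaks it was 3.

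The members were 3002 to 6178 bp wide in MEF control, with a median of 3380.5 bp. The widest lay at Ccnd1 (cyclin D1, which drives entry into the cell cycle; chr7:144937567-144943744), and it measured 6178, 6218, 4139 and 4124 bp. Series of 4 values here and below follow the order MEF control, MEF KO, reprogramming control, reprogramming KO. Next came Fscn1 (the actin-bundling protein fascin) at 5831, 5882, 4921 and 5102 bp. Dusp4 (a phosphatase of MAP kinases) measured 5588, 5640, 3654 and 5517 bp. Among the 12 widest were also Tgif1 (a TALE homeobox repressor, 5433 bp in MEF control), Fgf16 (a growth factor, 5363 bp), Marcks (an actin-linked kinase substrate, 5158 bp), Bcorl1 (a co-repressor, 5133 bp), Ddn (5090 bp), Plec (the cytoskeletal linker plectin, 5057 bp), Cntfr (a cytokine receptor, 5043 bp) and Tle3 (a Groucho family co-repressor, 5020 bp). Of these 12, 11 held a protein-coding start, and the one left lay 28058 bp from the nearest coding start, that of Ddc, in intergenic sequence (chr11:11923441-11928963).

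Width was held more often across the KO than across reprogramming. The matched peak was itself at least 3000 bp wide for 632 members in MEF KO and 385 in each reprogramming group, and for 313 members (43.4%) in all 4 groups. The 4 median widths were 3380.5, 3357, 3062.5 and 3055.5 bp. Since the width limit was set on MEF control, some narrowing elsewhere follows from the choice, so these widths are a description.

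**Figure D1:**
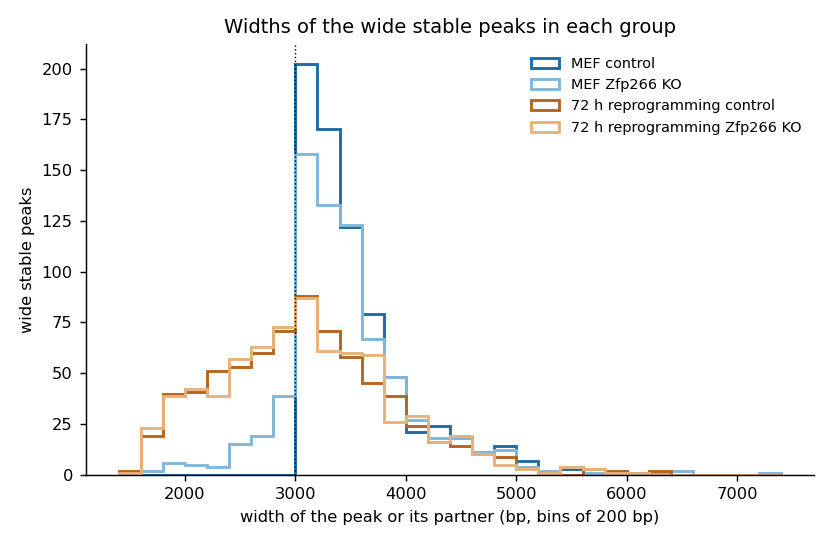
Number of wide stable peaks (vertical axis) by the width in bp of the peak or of its matched peak (horizontal axis, bins of 200 bp) in the 4 groups. The dotted line is the 3000 bp limit applied to MEF control; 632 of the 722 MEF KO widths and 385 of those of each reprogramming group lie at or above it.

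Nearest to the width limit on the inside were peaks in Crocc2 (3002 bp) and at the starts of Spire2 (3003 bp) and Cnksr3 (3004 bp). Just outside it were stable peaks at the starts of Nr3c1 and Ldlrad4 (each 1 bp under the limit) and in Ddx23 (2998 bp). For the overlap, members in Pcdh7 (50.02%), near Rad21 (50.18%) and in Amn (50.19%) lay just inside, and peaks in Adcy5 (49.98%), in Nav1 (49.92%) and at Nat14 and Ssc5d (49.79%) lay just outside.

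Most wide stable peaks held a protein-coding start. A protein-coding start of GENCODE M21 lay inside 523 of 722 members (72.4%, 95% Wilson interval 69.1 to 75.6%), and a further 29 (4.02%) held only the start of a noncoding gene. The other 93 lay in gene bodies and 77 in intergenic sequence. A coding start lay inside 31.1% of all stable peaks, 8.74% of all MEF control peaks and 27.7% (24.1 to 31.5%) of the peaks of at least 3000 bp that were not stable. Thus the wide peaks that failed the overlap held a start less often than the members, with intervals that do not meet. The nearest stable width class, 2000 to under 3000 bp, was close to the members at 68.5% (67.0 to 70.0%). These intervals cover counting error only. A wide peak also has more room to hold a start, and a coding start lay within 1000 bp of the middle in 58.3% of members. Starts of at least 2 coding genes lay inside 45 members.

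Where the starts in a member belonged to 1 coding gene (478 members), the peak reached a median of 1258 bp upstream of the first start and 2253 bp downstream. It was longer on the downstream side in 346 of 478 (72.4%, 68.2 to 76.2%). The lean into the gene was not particular to wide peaks: it was seen in 76.2% (75.3 to 77.0%) of 10159 narrower stable peaks.

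The members were GC-rich and CpG-rich. The median CpG count over that expected from base composition was 0.597 (quartiles 0.415 and 0.706) and the median GC content was 56.7%, against 0.314 and 50.8% over all stable peaks and 0.253 and 48.2% in the wide peaks that were not stable. Stable peaks of 2000 to under 3000 bp were close to the members, at 0.604 and 56.2%. Members with a coding start had a median ratio of 0.638, and those without had 0.271. Narrower stable peaks with a coding start reached 0.674, above the members with one.

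Short motif strings were counted on both strands in the 1000 bp around each peak's middle, a window of equal length for all. The GC box (GGGCGG, bound by SP and KLF factors) was in 70.6% of member windows, 45.1% of all stable windows and 20.7% of all MEF control windows. The AP-1 site (TGACTCA, bound by FOS and JUN dimers) was in 9.70% of member windows, 27.8% of all stable windows and 35.4% of all MEF control windows. The classes nearest to the members were close to them or higher in GC boxes: 72.3% of stable windows in the class of 2000 to under 3000 bp held one, and 86.4% of those of narrower stable peaks with a coding start. For the AP-1 string these shares were 12.2% and 10.2%. Of members without a coding start, 15.1% held the AP-1 string, against 35.9% of narrower stable peaks without one. The TEAD string (GGAATG) was in 38.2% of member windows and 43.0% of all stable windows, and the ETS string (CCGGAA) in 28.5% and 24.7%. TEAD strings were in 35.1% of windows in the class of 2000 to under 3000 bp. They were in 33.0% of those of narrower stable peaks with a coding start, so the members lay above both. ETS strings were in 33.0% of windows in the class of 2000 to under 3000 bp and in 47.5% of those of narrower stable peaks with a coding start, so the members lay below both. A match is a description of sequence and does not show binding.

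Most wide peaks held more than 1 block. The authors' sub-peak files mark the stretches inside each broad peak that pass a stricter threshold; these sub-peaks numbered 2 or more in 75.2, 68.3, 69.1 and 67.7% of members. In the 2000 to under 3000 bp class the share in MEF control was 35.4%, and in the wide peaks that were not stable it was 92.0%. The longest sub-peak of a member had a median of 2038.5 bp in MEF control, and sub-peaks covered a median of 79.4% of the peak. In the wide peaks that were not stable, sub-peaks covered a median of 65.1%. At least 2 sub-peaks were present in all 4 groups in 338 members, and a single one in all 4 groups in 71.

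**Figure D2:**
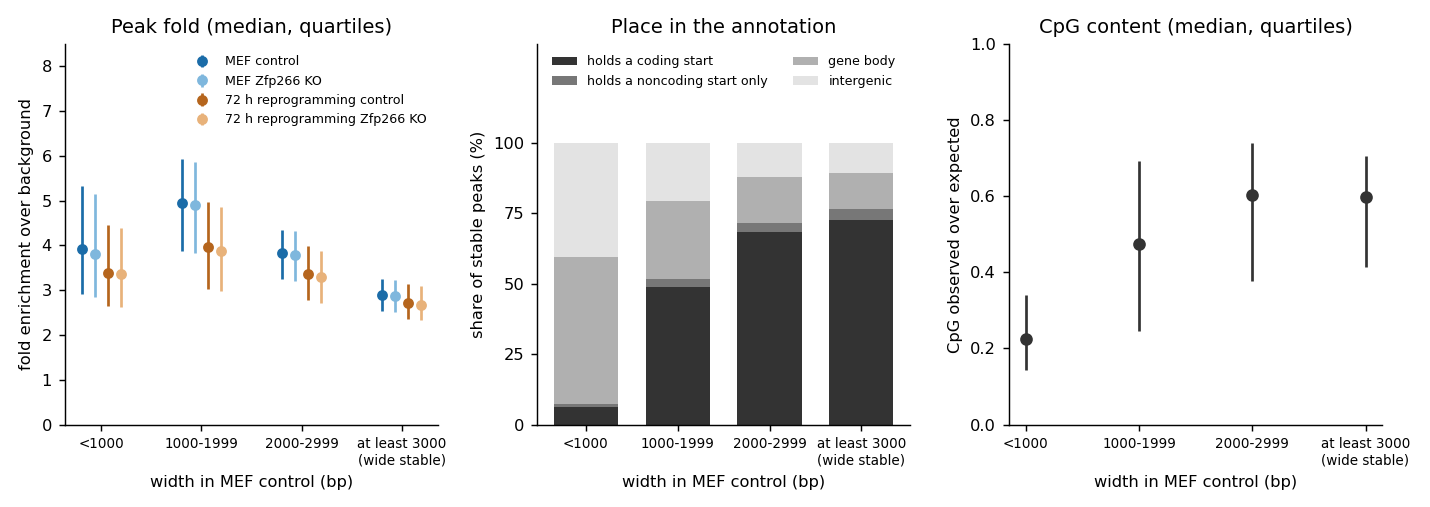
Stable peaks in 4 classes of width in MEF control: left, fold enrichment over background in the 4 groups (points are medians, bars are quartiles); middle, share of peaks by place in the annotation; right, CpG observed over expected (median and quartiles). The wide stable peaks have the lowest median fold, 2.67 to 2.89, and the largest share with a coding start, 72.4%.

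Peak fold is the pileup of reads over the local background, averaged by the peak caller over the whole peak. The median fold of the members was 2.89 in MEF control (quartiles 2.55 and 3.24) and 2.87, 2.71 and 2.67 in the other groups. Stable peaks of 1000 to under 2000 bp had medians of 4.95, 4.91, 3.96 and 3.88, and those of 2000 to under 3000 bp had 3.82, 3.79, 3.37 and 3.30. The wide peaks that were not stable had 2.73, 2.72, 2.65 and 2.67, so the low fold was not particular to the members. There is 1 merged peak list per group, so these values have no replicate error and no test was run on them. Reads are spread over more bases in a wide peak, and the part this plays in the lower fold was not tested.

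The highest fold over the 4 groups was at Rusc2 (4.86, 5.01, 6.13 and 6.32). It was followed by an intergenic peak of the X chromosome, 337202 bp from the nearest coding start (H2al1j), with 3.97, 4.13, 5.56 and 4.72. Next was Boc (a Hedgehog co-receptor) with 3.86, 3.902, 5.15 and 5.43. These peaks were higher in the reprogramming groups, where their matched peaks were narrower: at Boc 3398 bp in MEF control and 1919 bp in reprogramming control. Kcnmb4, Rchy1, Mtus1, Cnksr3 and Rassf8, all with a coding start inside, completed the 8 highest.

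The lowest fold was inside Neat1 (a nuclear long noncoding RNA that builds paraspeckles; chr19:5839344-5843188), with 1.29, 1.30, 1.28 and 1.29. No group stood apart there. Next was a peak in an intron of Sfi1 with 1.44, 1.49, 1.39 and 1.44. The rest of the 8 lowest lay away from coding genes, nearest to Tubd1, H3f3b, Iffo2, Plk2, Col19a1 and Cluh. None of the 8 held a coding start.

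The peak nearest Col19a1 (chr1:24611636-24616115, 4480 bp) matched the mitochondrial genome over 100% of its length at 99.95% identity, and it was the only member with such a match at an E-value under 1e-20. It had the largest mean -log10 q of all members, 243, 257, 1426 and 1393, with a fold of only 1.65, 1.63, 1.86 and 1.89. Next in -log10 q were a pair of members at the start of chromosome 9, at Gm10722 and Gm11168 (97.3% repeat-masked) and at Gm10718 and Gm10719 (97.1%), with 183 and 143 in MEF control. Near-identical copies share reads, so values in these 3 members are uncertain, and whether their reads came from these loci was not tested. A -log10 q under 5 in at least 1 group was seen at 55 members. In all, 9 members were at least 50% repeat-masked, against a median of 10.99%.

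Genes were then grouped by lists. The lists were written with earlier results of these data known. Of 21924 protein-coding genes, 569 (2.60%) had a start inside a member. Each list is set beside that share, with no test. The lists also differ in the share of genes with a stable peak of any width at a start, 38.5 to 100% against 57% of all coding genes. Among coding genes with such a peak, 4.55% had a start inside a member. The same share was 41.7% for imprinted genes, 40% for RNA hosts, 36.4% for AP-1 and 33.3% for cell cycle and p53 genes. It was 20% for pluripotency genes and 0 for ribosomal protein and epithelial genes.

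Of 20 cell cycle and p53 genes, 6 (30.0%) had a start inside a member: Ccnd1, Ccnd2 and Ccnd3 (the D-type cyclins), Cdk6 (their kinase partner), E2f3 (a transcription factor of S-phase entry) and Trp53 (the p53 tumour suppressor). Ccnd2 had a fold of 1.99, 1.84, 2.27 and 2.13. Ccnd3 had 3.46, 3.36, 2.24 and 2.18, so that it was lower in both reprogramming groups, while Ccnd1 had 2.41, 2.31, 2.18 and 2.22. All 3 D-type cyclins were thus members, with unlike changes between MEF and reprogramming.

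Of 15 AP-1 family genes, 4 (26.7%) had a start inside a member: Jun, Junb, Fos and Fosb, all known as immediate-early genes that are transcribed within minutes of a stimulus. Junb (4962 bp) had a fold of 2.13, 1.99, 2.19 and 2.24. Fos (4629 bp) had 2.19, 2.02, 2.39 and 2.50. Jun (3541 bp) had 2.34, 2.23, 1.82 and 2.07, and Fosb (3270 bp) had 2.46, 2.51, 2.02 and 2.06. As they stand, Jun and Fosb were lower in reprogramming than in MEF in both genotypes and Junb and Fos higher, but set against the median ratio of all stable peaks (0.853 in control, 0.855 in KO cells) the ratio of Jun was lower in control (0.777) and higher in KO cells (0.929).

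Of 20 imprinted genes, 5 (25.0%) had a start inside a member: Peg3, Peg10, Sgce, Mest and Grb10. Peg10 and Sgce share 1 peak (chr6:4746150-4749538), since their starts face away from each other, with a fold of 3.22, 3.11, 3.30 and 3.18. Mest had 2.92, 2.88, 2.53 and 2.45, and Grb10 had 2.53, 2.26, 2.81 and 2.60. Imprinted genes are expressed mainly from 1 parental copy, and the parental copies are not told apart by these files.

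Developmental regulators were represented by 3 of 16 TALE and PBX homeobox genes (Tgif1, Tgif2 and Meis2), 5 of 28 genes of WNT, Notch and Hedgehog signalling (the WNT receptors Fzd2 and Fzd7, the WNT effector Lef1, the Notch ligand Jag1 and the Hedgehog receptor Ptch1), and 3 of 42 mesenchymal transcription factors (Twist2, Tbx2 and Klf4). Tgif1 had a fold of 1.94, 1.92, 2.07 and 2.06, and Jag1 had 3.45, 3.23, 3.53 and 3.34. Twist2, a bHLH factor of mesenchyme, had 2.91, 2.83, 2.55 and 2.49. Klf4 had 2.58, 2.54, 2.73 and 2.73. Every group carries a Klf4 copy in the reprogramming cassette, and its part in the reads at Klf4 was not tested. Runx2 and Cebpd were the members among 18 genes of the TEAD, YAP, RUNX and CEBP list, with 2.34, 2.33, 2.74 and 2.65 at Runx2, a master factor of bone.

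Chromatin regulators gave 6 of 37 genes (16.2%): Kmt2d and Kmt2e (histone methyltransferase family), Kdm2b (a CpG island binder), Arid1b and Smarca2 (SWI/SNF subunits) and Brd2 (an acetyl-lysine reader). Their fold ran from 2.14 at Kdm2b in MEF KO to 3.23 at Kmt2d in MEF control. Fibroblast products gave 4 of 37 matrix genes (Col5a1, Lox, Mmp14 and Serpinh1) and 2 of 24 TGF-beta genes (Tgfb1 and Tgfb3). Col5a1, a fibrillar collagen chain, had 2.66, 2.55, 3.13 and 2.91, and Serpinh1, the collagen chaperone, had 2.53, 2.66, 1.95 and 2.11. Of 27 actin cytoskeleton genes, Tagln2 and Pfn1 had a start in a member, and so did Ccnd1, which that list also holds.

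Strongly transcribed housekeeping genes were looked at through the ribosomal protein genes. None of 70 ribosomal protein genes had a start inside a member, although 55 of them (78.6%) had a start inside a stable peak of some width. None of 14 epithelial genes had one either. Of 22 pluripotency genes, Sall4 and Sall1 had a start inside a member. Both also act in the embryo outside pluripotent cells, and the fold at Sall4 was 2.59, 2.56, 2.62 and 2.45. Of 13 long RNAs and RNA hosts, Mir22hg had 1 member and Mir99ahg had 2.

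**Figure D3:**
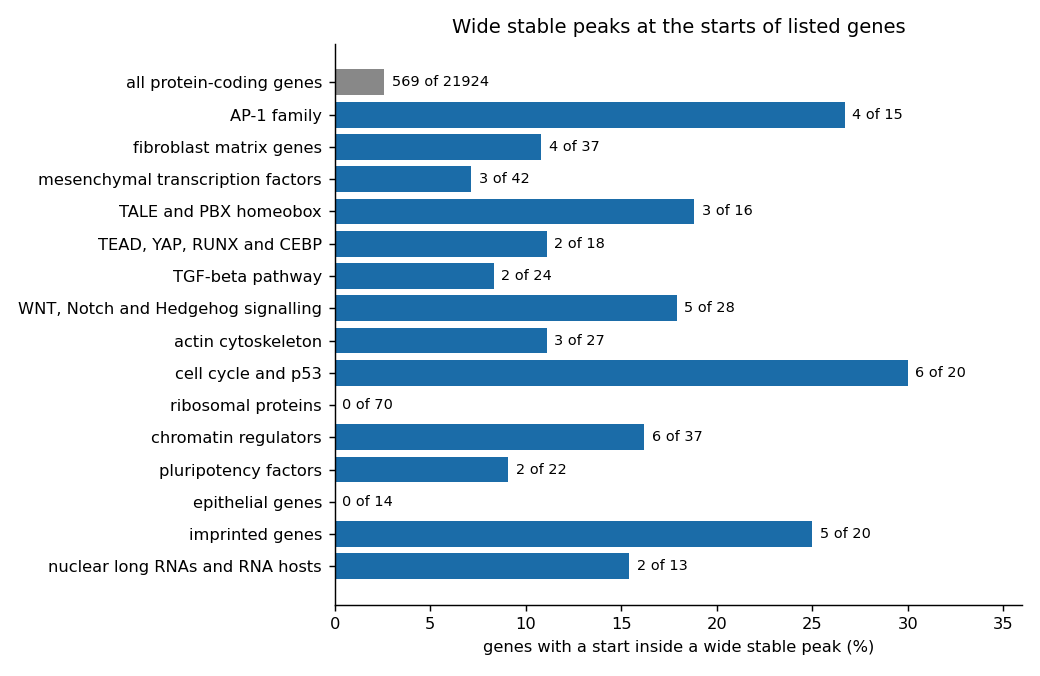
Share of the genes of each list described with a start inside a wide stable peak (horizontal axis, %), with the counts beside the bars. The grey bar is the share over all protein-coding genes, 2.60%; ribosomal protein and epithelial genes stand at 0, and the cell cycle and p53 list stands highest at 30.0%.

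Some members lay near each other. Within 50 kb of another member lay 75 members, in 35 groups. The largest group had 4 members across Bcor (a BCL6 co-repressor; chrX:12076848-12160619), a pair of them at coding starts and a pair inside introns, 3160 to 4990 bp wide. Their fold in MEF control ran from 2.35 to 2.79. Pairs also lay at Tle3, Plec, Gse1, Pcdh7 and Adamts1.

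The next comparison set reprogramming against MEF, which also differed in medium and co-culture. Over all stable peaks the median ratio of fold, reprogramming control over MEF control, was 0.853, and over the members it was 0.948. It was 0.894 in stable peaks of 2000 to under 3000 bp and 1.02 in the wide peaks that were not stable. The 5th and 95th percentiles were 0.722 and 1.27 in members and 0.631 and 1.28 in the 2000 to under 3000 bp class. They were 0.638 and 1.76 in the wide peaks that were not stable. At the 95th percentile the nearest width class was thus close to the members. Of the members, 268 had a ratio above 1 and 454 below. A change of at least 1.5-fold was reached by 3 members upward (0.416%, against 6.1% of all stable peaks) and by 11 downward (1.52%, against 21.2%). In KO cells the counts were 6 upward (6.3% of all stable peaks) and 15 downward (20.7%). All 3 upward members of the control cells, and 7 of the 11 downward ones, passed the same limit in the KO cells. When each ratio was divided by the median of all stable peaks, the split turned to 36 upward and 1 downward in control cells, against 11.2% and 9.94% of all stable peaks. The rule had required the peaks to keep their place in both conditions, and place and fold come from the same pileup, so the small number of changed members is a description.

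The 3 upward members lay away from coding starts. The peak nearest Gm15319 (chr8:20152943-20157233) had a fold of 2.13, 2.16, 4.18 and 3.44. Its -log10 q was 6.82, 7.47, 166 and 104, in reprogramming control the largest after the 3 members called uncertain above. It was 32.3% repeat-masked, and whether its reads came from this locus was not tested. The intergenic peak nearest Arid5b (a chromatin-binding factor), 76813 bp from its start, had 2.52, 2.41, 4.38 and 4.52. The peak in an intron of Rbm20 (a splicing factor) had 2.27, 2.25, 3.85 and 3.74. Values were higher in reprogramming in both genotypes for all 3. Each was also narrower in reprogramming, at Arid5b 2626 bp against 3834 bp in control cells. Mtus1, 3110039I08Rik, Epha1 (an ephrin receptor), Rassf8 and Gm29458 had the next largest ratios, 1.43 to 1.49.

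Downward, Sytl1 (a synaptotagmin-like protein) went from 3.40 in MEF control and 3.09 in MEF KO to 1.88 and 1.87 in the reprogramming groups. The intergenic peak nearest Insig1 (a regulator of sterol synthesis) went from 2.79 and 2.77 to 1.65 and 1.88. Sipa1l1 had 3.22, 3.20, 2.02 and 2.03, and Nkx2-9 (a homeobox gene) had 3.29, 3.22, 2.08 and 2.07. Tyro3 (a receptor tyrosine kinase), Plxnc1 (a semaphorin receptor), the peak near Spc24 and Ccnd3 completed the 8 lowest ratios, 0.633 to 0.648. In contrast to the upward members, Nkx2-9 and Insig1 kept their width, at 3054 bp against 3116 bp and at 3534 bp against 3586 bp.

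Across the 722 members, the log2 ratio of width and the log2 ratio of fold between reprogramming control and MEF control had a Pearson r of -0.44, and across all 37964 stable peaks it was 0.18. These are descriptions, since both ratios come from the same peaks. Of the 294 members whose width in reprogramming control was within 10% of that in MEF control, 0 were at least 1.5-fold higher and 6 at least 1.5-fold lower, and their median ratio was 0.916. Of all stable peaks with widths within 10%, 3.65% were higher and 15.3% lower by that limit, with a median ratio of 0.863. The limit of 10% was set after the values had been seen.

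**Figure D4:**
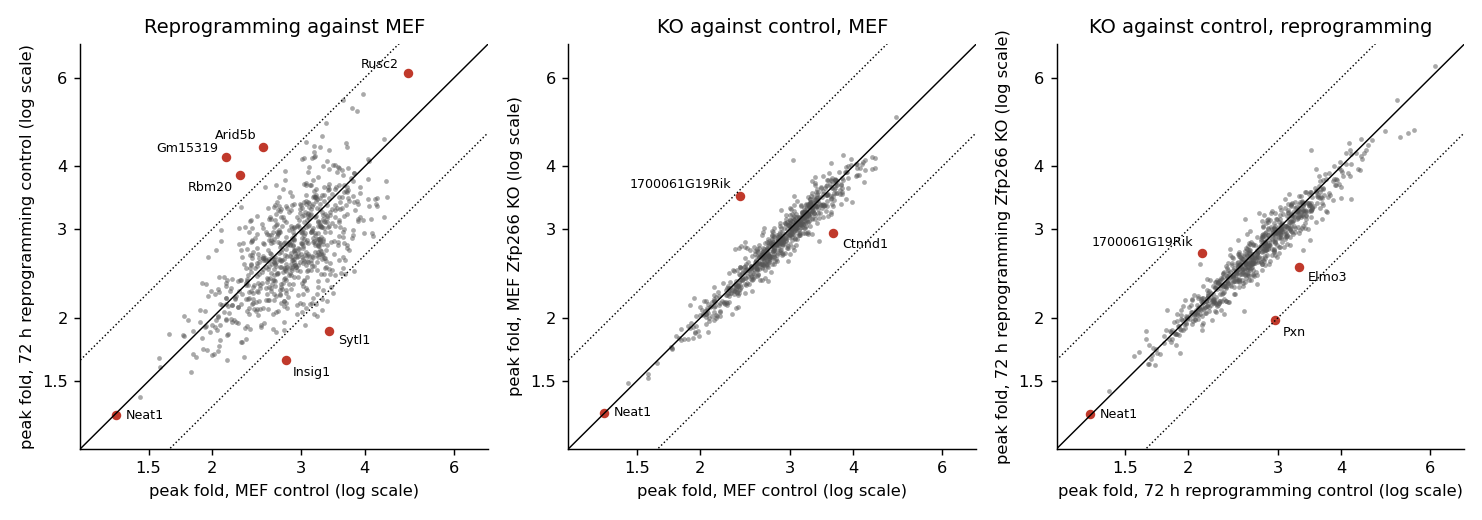
Peak fold of the 722 wide stable peaks on log scales, in reprogramming control against MEF control (left), MEF KO against MEF control (middle) and reprogramming KO against reprogramming control (right). The solid line is equality and the dotted lines are 1.5-fold; 3 peaks lie above and 11 below them on the left, and 0 lie outside them in the other 2 panels.

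The KO was compared with control within each context. The ratio of fold, KO over control, had a median of 0.989 in MEF (0.805 to 1.46 over the members) and 0.983 in reprogramming (0.669 to 1.26). No member passed 1.5-fold in MEF, upward (0.0184% of all stable peaks did) or downward (0.0342%). None did in reprogramming, upward (0.0474%) or downward (0.029%). These shares are too small for 0 of 722 to say anything about the members. The largest ratio in both contexts was at 1700061G19Rik, where the fold was 2.40, 3.502, 2.13 and 2.69 and the peak 3281, 1798, 2521 and 2456 bp wide. The smallest were at Ctnnd1 in MEF (3.66 in control, 2.95 in KO) and at Pxn, the focal adhesion gene paxillin, in reprogramming (2.97 in control, 1.98 in KO). The matched peak at Pxn was 3485 bp wide in reprogramming control and 1862 bp in reprogramming KO, where the member overlapped 2 peaks. With both peaks weighted by their length the fold at Pxn in reprogramming KO was 2.64, so the low ratio rests on taking 1 of them.

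The next largest KO ratios in MEF were near Sh3pxd2a (3.04 in control, 4.12 in KO), at A230087F16Rik (2.34 and 2.74), in Tbc1d8 (2.41 and 2.78) and at Nkx2-1, a homeobox gene of lung and forebrain (2.45 and 2.83). The matched MEF KO peak near Sh3pxd2a was 1811 bp wide, against 3402 bp in control. The next smallest in MEF were in Ncoa3, a nuclear receptor co-activator (3.43 and 2.85), at Prdm16, a regulator of brown fat identity (3.99 and 3.40), in the intergenic peak nearest Tle3 (2.73 and 2.37) and at Fat4, an atypical cadherin (2.98 and 2.60). In reprogramming the next largest were near Gtdc1 (3.497 in control, 4.32 in KO), at Eomes, a T-box factor of early lineages (2.59 and 3.15), in Pcdh7 (2.11 and 2.56) and at Trank1 (2.76 and 3.23). The next smallest there were at Elmo3, at Comp, a cartilage matrix gene (2.58 and 2.06), at the starts of Bloc1s3 and Trappc6a (3.37 and 2.73) and at Bhlhe40, a clock-linked repressor (3.47 and 2.85). Among the 5 largest ratios in each context, 1700061G19Rik was the one member in both, and the 5 smallest shared none. The matched peaks in reprogramming control and KO were 1841 and 4076 bp wide at Comp, 3367 and 1980 bp at Eomes and 1713 and 3128 bp at Trank1.

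Replicate read counts are deposited for the intervals that the authors listed at an FDR under 0.05, out of 273256 intervals of the union of peaks. An interval listed as higher in KO overlapped 1 member in MEF (0.175% of all intervals were listed so) and 3 members in reprogramming (0.557%). Intervals listed as lower in KO overlapped 0 members in MEF (0.000366% of all intervals) and 0 in reprogramming (0.0315%). These intervals were listed because the same libraries differed, so the tests that follow are no independent evidence.

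The interval in 1700061G19Rik (chr17:56883376-56886825) was listed in both contexts; it covers the whole member, whose middle is in an intron of this predicted gene. In MEF the normalised read counts were 162, 154 and 151.1 in the 3 control libraries and 243, 241 and 211 in the 3 KO libraries, with means of 156 ± 5.94 (SD, n = 3) and 231 ± 17.7. The groups did not overlap, and the log2 fold change was 0.57 ± 0.09 (SE; edgeR quasi-likelihood test, adjusted p = 4.32e-07). At 72 h of reprogramming the counts were 261, 262 and 259.8 in control and 566, 659 and 570.0 in KO, with means of 261 ± 1.25 and 599 ± 52.7. Again the groups did not overlap, and the log2 fold change was 1.19 ± 0.08 (edgeR, adjusted p = 9.61e-38). Without scaling the call was lost in MEF (log2 0.63, edgeR adjusted p = 1) and in reprogramming (1.07, edgeR adjusted p = 0.354). Under TMM over the listed intervals the MEF change turned to -0.47 (edgeR adjusted p = 0.00186) and the call in reprogramming was lost (0.22, edgeR adjusted p = 1). Its rank by size was 431 of 480 listed intervals in MEF and 620 of 1608 in reprogramming. The KO effect was larger in reprogramming than in MEF by 0.62 ± 0.14 on the log2 scale (edgeR interaction term, adjusted p = 8.99e-05 over the 70 intervals listed in both).

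At Fscn1 (chr5:142958645-142965229) the normalised counts in reprogramming were 1771, 1857 and 1724 in control and 2047.5, 2326 and 2042 in KO. Every KO library was above every control library, by a small margin, and the log2 fold change was 0.26 ± 0.05 (edgeR, adjusted p = 0.000164). The call was lost without KO replicate 2, the highest library (log2 0.19, adjusted p = 0.116 by edgeR). At Elmo3 (an engulfment and cell motility gene; chr8:105303231-105307026) the counts were 364, 382 and 346 in control and 447, 466 and 459 in KO, with a log2 fold change of 0.32 ± 0.08 (edgeR, adjusted p = 0.00427). Here too the groups did not overlap. The call was lost without control replicate 1 (adjusted p = 0.0559), without control replicate 3 (0.0981) and with DESeq2 (0.0835), while the log2 fold change stayed at 0.32, 0.29 and 0.32. The counts and the peak fold went opposite ways at both: at Fscn1 the fold was 2.23 in reprogramming control and 2.18 in reprogramming KO. At Elmo3 the fold was 3.31 in reprogramming control and 2.53 in reprogramming KO, where the member overlapped 2 peaks and the matched one was 1787 bp wide, against 2340 bp in control. These were among the smallest changes listed, ranked 1606 (Fscn1) and 1596 (Elmo3) of 1608. Without scaling the calls at Fscn1 and Elmo3 were lost, with log2 fold changes of 0.13 and 0.19. Scaling by TMM over the listed intervals alone turned the direction at Fscn1 and Elmo3 in reprogramming and at 1700061G19Rik in MEF.

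**Figure D5:**
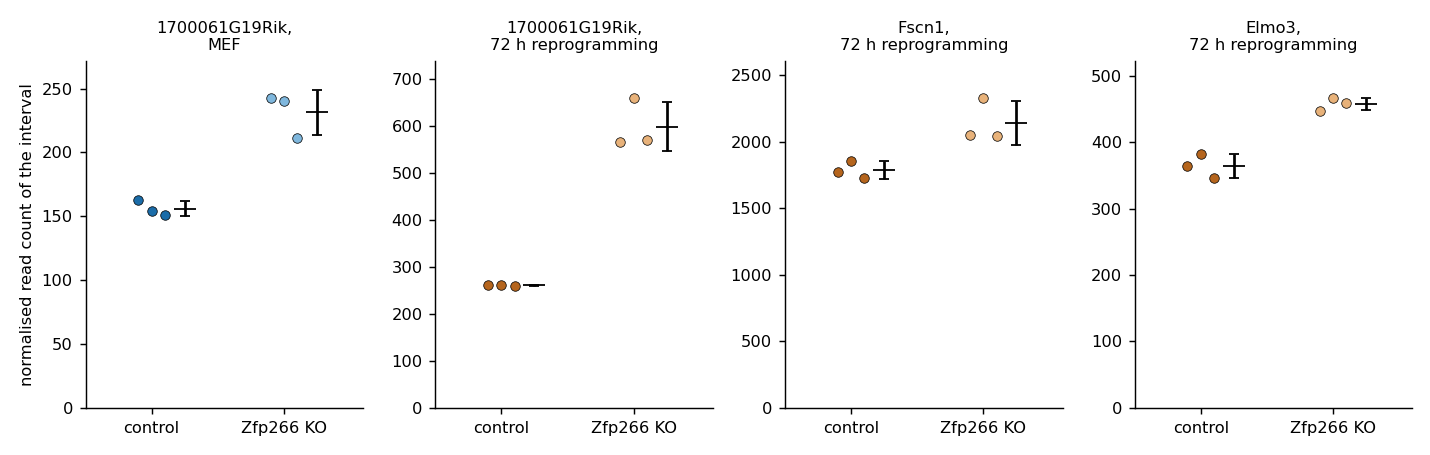
Normalised read count of each library (points; vertical axis from 0) at the intervals that overlap wide stable peaks and are listed as changed in KO, with the mean and SD (bars, n = 3). In all 4 panels the 3 KO libraries lie above the 3 control libraries, with the largest fold at 1700061G19Rik in reprogramming (2.29).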

How the data were processed

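Omni-ATAC-seq libraries of 4 groups (n = 3 each) were analysed from deposited files. The authors mapped reads with BWA (GRCm38). Reads on mitochondrial DNA or blacklisted regions, duplicates and reads out of proper pairing were dropped. Broad peaks came from MACS2. The study's methods describe calling per biological sample, but the deposited lists are 1 per group, with names that mark merged replicates, and were used as such. Per deposited peak there is a fold enrichment, a ratio, and the -log10 q-value, and sub-peak files give blocks within peaks. The authors counted reads over the union of peaks with Rsubread; the deposited tables hold raw counts, normalised counts (a signal: counts divided by a DESeq2 size factor) and a pooled mean, for listed intervals only. Columns with the authors' log2 fold change, its error, test statistic and p-values were not used. Library depth is unknown beyond the counts in listed intervals (33936 to 86490 per MEF library, 141620 to 324140 per reprogramming library).

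Overlaps used bedtools 2.31.1, and the match with the mitochondrial genome blastn 2.17.0. For each member the peak with the largest reciprocal overlap in each group was its matched peak. Gene starts were those of GENCODE M21 basic transcripts. A member was named by the coding starts inside it, otherwise by noncoding starts, the gene body at its middle or the nearest coding start. Named were the 12 widest, the 8 highest and 8 lowest by fold, the 8 at each end of the reprogramming over MEF ratio, the extremes of the KO ratios, members at listed intervals, up to 5 per gene list and those nearest each threshold. Other names, and the match with mitochondrial DNA and the repeat shares, were chosen after their values were seen. The members and the gene lists were chosen with earlier results of these data known. A further gene list is not reported here.

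Listed intervals were tested with edgeR 4.0.16 (quasi-likelihood, two-sided) in R 4.3.3 on raw counts with the size factors recovered from the tables, with Benjamini-Hochberg adjustment over 273256 intervals; the SE was derived from the test statistic. DESeq2 1.42.0 was an alternative. The edgeR test was also run on simulated counts, with up and down changes drawn alike and larger than those at Fscn1 and Elmo3. The listed intervals were selected and mostly higher in KO, so that run does not show how the test performs on them. The labels do not say whether replicates are separate cultures, so p-values measure the spread between these libraries.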

Additional observations from a re-analysis of the deposited data

Results flagged for a closer look

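The KO effect at the 1700061G19Rik member differed between contexts by a test of the difference itself. The log2 fold change, KO over control, was larger in reprogramming than in MEF by 0.62 (edgeR interaction term, adjusted p = 8.99e-05), with KO above control in 3 of 3 libraries in each context. The interaction passed the threshold at 25 of the 70 intervals that MEF and reprogramming lists share, 9 of them with the larger effect in reprogramming. The interval was listed in each context because these libraries differed. The interaction was run with the recovered size factors only. Under TMM over the listed intervals the MEF log2 fold change turned to -0.47, and without scaling the call was lost in each context.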

How the results depend on the processing

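The number of members followed the limits of the rule: 1773 at a minimum width of 2500 bp, 101 at 4000 bp, 315 at 80% reciprocal overlap and 1186 with any overlap, against 722. It was 973 at 30% overlap and 667 or 557 with a -log10 q of at least 5 or 10. The share with a gene start was 76.5% over all genes, 72.4% for coding genes and 58.3% for a coding start within 1000 bp of the middle. Dividing each fold by its group's median over all stable peaks turned the median ratio to 1.14 for reprogramming control over MEF control and to 1.01 for KO over control in MEF; the latter sits at 1 within the spread of the members. Keeping peaks of like width, or leaving out the member that matches mitochondrial DNA (721 members), was chosen after seeing the data. The median folds with length-weighted partners, and the median ratios with those, at 4000 bp, at 80% overlap and with widths within 10%, stayed within the spread of the members.

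At the listed intervals, raw counts without scaling gave 0 calls in each context, and TMM over the listed intervals gave 0 upward calls in each: it turned the log2 fold change to -0.47 at 1700061G19Rik in MEF, -0.71 at Fscn1 and -0.65 at Elmo3, and left 0.22 at 1700061G19Rik in reprogramming. Of the listed intervals edgeR called, 477 of 478 in MEF and 1522 of 1608 in reprogramming were higher in KO, so a scaling that balances them must turn the small changes. Leaving out each library in turn gave 1 call in MEF and 2 to 3 in reprogramming. With the replicate number as a block the calls stayed at 1 and 3. The numbers were not taken to pair the libraries: same-numbered libraries had correlations of 0.04 to 0.21 in MEF and 0.04 to 0.10 in reprogramming, not all above 0.1, though every library correlated best with its own number except MEF KO replicate 3.

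Peak values come from 1 merged list per group and have no replicate error. Replicate counts exist here for listed intervals alone, so changes at the other members could not be tested.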
